A study of Mus musculus with 42 samples.

Results

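Cells sorted on day 6 of anterior definitive endoderm (ADE) differentiation for GSC-GFP and HHEX-RedStar are written d6 G+H+ here. They are the end product of the differentiation in this series. Their 3 arrays, chosen by the deposited names, were compared with the 3 arrays of mESCs, so that 6 of the 42 arrays of the series carry the comparison. Both groups came from the HRS/Gsc-GFP dual reporter mESC line, in which GFP reports Gsc and RedStar reports Hhex. The ESCs were kept in ESC medium with LIF and were not sorted. The d6 G+H+ cells came from monolayer differentiation in flasks, under a timed regimen of cytokines and growth factors, and were sorted by flow cytometry. Neither group received the EZH2 inhibitor EPZ6438 that was used elsewhere in the series. Each condition was run in 3 independent experiments with this 1 line. The values are log2 intensities of total RNA labelled with Cy3 on Agilent single-colour mouse arrays. A difference is always d6 G+H+ minus ESCs on that scale unless another group is named, and every test is limma's moderated test with Benjamini-Hochberg adjustment over all probes. Differences between groups include whatever sorting itself does to RNA, since ESCs were not sorted, and this cannot be told apart from differentiation. The same holds for direct effects of the media and added factors, which differed between the groups. Each array measured a bulk population, so that fewer cells with a transcript and less of it per cell cannot be told apart either.

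Anterior definitive endoderm forms from epiblast cells that leave the anterior primitive streak, and it gives rise to the foregut and its organs, among them thyroid, liver and pancreas. It is built by forkhead, GATA, SOX and homeodomain factors that act downstream of high Nodal signalling. It is also a signalling tissue, since it secretes antagonists of Nodal, Wnt and BMP that keep the overlying tissue anterior. Naive ESCs are held in place by a network around OCT4 (Pou5f1), NANOG and SOX2 together with the KLF factors and ESRRB.

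The label of the sorted cells was checked against Hhex, Gsc and Cer1. Gsc, a homeodomain repressor of the organiser, had log2 intensities of 4.99, 5.15 and 4.75 on the ESC arrays and of 13.46, 13.12 and 13.39 on the d6 G+H+ arrays. Hhex, a homeodomain repressor of anterior endoderm, had 8.24, 7.11 and 7.17 on the ESC arrays and 12.52, 12.86 and 12.53 on the d6 G+H+ arrays. The groups did not overlap for either gene, but both reporters set the sorting gate, so that these values check the labels and are no finding. Cer1, which encodes a secreted antagonist of Nodal, BMP and Wnt and was not part of the gate, had 4.75, 4.97 and 4.81 in ESCs and 16.13, 15.86 and 15.78 in d6 G+H+ cells. No ESC array was well above background for Cer1 and all 3 d6 G+H+ arrays were, which makes the difference a lower bound of at least 2050-fold (limma adjusted p = 2.32e-12). Here and below such a bound sets the mean of the bright group against the lowest signal that passed as well above background on the dim arrays, or the probe's own value there where that was higher.

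In total 1254 of 20972 genes were higher in d6 G+H+ cells than in ESCs (5.98%) and 1170 were lower (5.58%), with limma's adjusted p no higher than 0.01 and a log2 difference of 1.5 or more in size. Together they were 2424 genes (11.6%). Over all genes, and by their brightest probe, every d6 G+H+ array lay above every ESC array for 22.4% and below for 22.8%, which is the background to each statement that groups did not overlap. The median difference over all genes was 0.00 and the median absolute difference 0.34. For 188 of the genes called higher no ESC array was well above background, and for 170 of those called lower the same held in d6 G+H+ cells. Log2 values correlated at 0.98 to 0.99 between arrays of a group and at 0.94 to 0.95 between the groups, and 28595 to 33975 of 55681 probes were well above background on the 6 arrays. ESC replicate 2 and d6 G+H+ replicate 1 shared a slide. On that slide alone the 1215 genes called higher and the 1118 called lower through their brightest probe had median differences of 2.26 and -2.27, against 2.31 and -2.20 over all arrays. These genes were chosen on fits that include the same arrays, so that such values describe them and test no slide effect. Replicates 1 and 2 were scanned on one day and replicate 3 on another. The median difference of the same genes was 2.28 and -2.24 on the first day and 2.44 and -2.28 on the other.

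**Figure D1:**
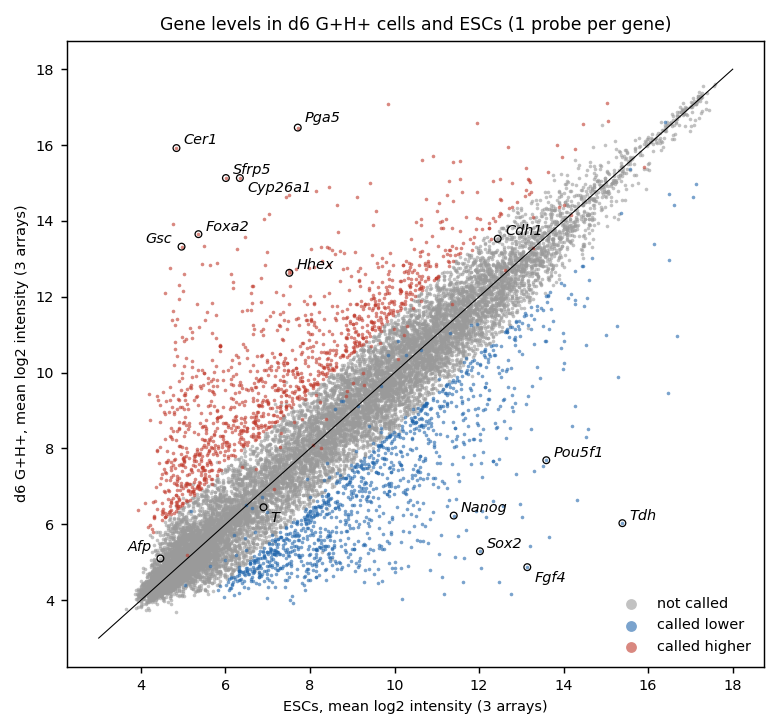
Mean log2 intensity of each of 20972 genes in ESCs (x axis) and in d6 G+H+ cells (y axis), 3 arrays each and 1 probe per gene, with genes called higher in red, called lower in blue and the rest in grey. The line marks equal values. Cer1, Sfrp5, Gsc and Foxa2 lie at the upper left, Tdh and Fgf4 at the lower right, and coloured points near the line are genes called through another of their probes.

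The 10 largest increases among genes that kept 1 direction in each of the 9 pairings of an ESC and a d6 array were those of Cer1, Prss12, Sfrp5, Cyp26a1, Pga5, Gsc, Foxa2, Hkdc1, Slc38a5 and Sox17, with differences between 7.57 and 11.08. Prss12, which encodes the secreted serine protease neurotrypsin, had 4.66, 4.60 and 5.00 in ESCs and 14.31, 13.83 and 13.58 in d6 G+H+ cells. It was not well above background in ESCs and was at least 522-fold higher (adjusted p = 1.81e-18). Pga5, a pepsinogen gene, rose from 7.73, 7.15 and 8.26 to 16.71, 16.00 and 16.67, a difference of 8.74 with a standard error of 0.45. Hkdc1, a hexokinase domain gene, was at least 214-fold higher. Slc38a5, an amino acid transporter, differed by 7.85. The rule that chose these genes fixes that their groups do not overlap.

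The 10 largest decreases were those of Tdh, Tcl1, Fgf4, Klf2, Mymx, Fbxo15, Dnmt3l, Jam2, Dppa2 and Rpl10l, between -9.36 and -7.01. Tdh, the threonine dehydrogenase on which mouse ESCs depend, fell from 15.58, 15.05 and 15.53 to 5.83, 6.11 and 6.15, a difference of -9.36 with a standard error of 0.40 (adjusted p = 1.53e-18). It was the largest decrease by this rule, and the probe stayed well above background on all d6 G+H+ arrays. Tcl1, an AKT coactivator, was at least 222-fold lower, the junction gene Jam2 at least 136-fold and Mymx, a muscle fusion gene, at least 183-fold. None of these 3 was well above background in d6 G+H+ cells. Rpl10l is a close copy of Rpl10, so that its probe may share signal with that gene.

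Functional groups were described through 36 gene lists with 929 genes on the array, of which 191 were called higher and 124 lower. The list of anterior endoderm and organiser transcription factors stood highest. Of its 20 members 15 rose, against 5.98% of all genes, and 0 fell, with a median difference of 5.01 beside 0.00 over all genes. These members include Gsc and Hhex, whose reporters set the gate, and without both 13 of 18 rose, 0 fell and the median was 3.92. Naive pluripotency factors stood lowest, with 0 of 20 members higher and 15 lower, against 5.58% of all genes, and a median of -4.20. General pluripotency regulators followed, with 14 of 24 lower and a median of -3.88. Ribosomal protein and reference genes, 42 in number, held 0 calls and a median of 0.00, with differences from -0.75 to 0.63. Counts and medians of lists are descriptions, since the lists were drawn up with results of these data known. Each list's counts against ESCs, here and below, stand beside the 5.98% higher and 5.58% lower of all genes.

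**Figure D2:**
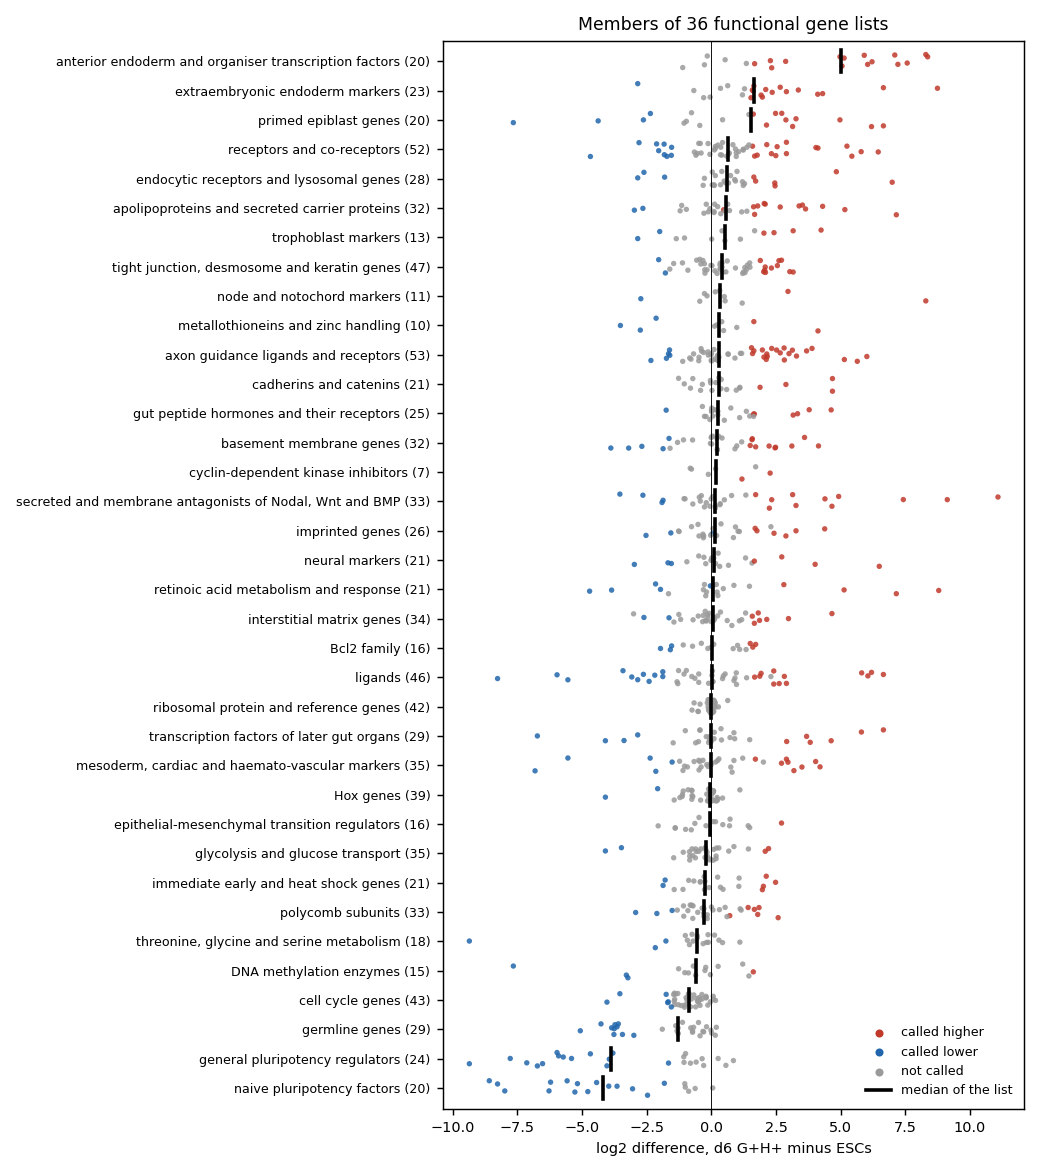
Log2 difference of each member of the 36 lists, d6 G+H+ minus ESCs (x axis), with the number of members on the array in brackets, colours for the call and a black bar at each list's median. Anterior endoderm factors at the top, Gsc and Hhex among them, have a median of 5.01 and naive pluripotency factors at the bottom one of -4.20.

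Among the transcription factors of anterior endoderm, the forkhead factors Foxa2 and Foxa1, which open chromatin at endodermal enhancers, both rose. Foxa2 had 5.09, 5.51 and 5.47 in ESCs and 13.57, 13.55 and 13.82 in d6 G+H+ cells, a difference of 8.29 with a standard error of 0.63 (adjusted p = 1.6e-12). Foxa1 rose by 5.91 and Foxa3 by 2.87. Sox17, a SOX factor of endoderm, had 5.02, 5.14 and 4.92 against 12.14, 12.71 and 12.94 and was at least 185-fold higher. The GATA factors Gata6 and Gata4 rose by 7.21 and 6.21. The homeobox genes Lhx1, Hesx1 and Otx2, required for head formation, rose by 7.09, 6.04 and 4.97. Eomes, the T-box factor that specifies endoderm in the streak, rose by 5.05. Mixl1, a homeobox gene of the early streak, was at least 3.99-fold higher. Gata5, Klf6, Sox7, Sp5 and Tcf7l1 were the 5 members that were not called, with differences from -1.11 to 1.35. All 20 members were well above background on the 3 d6 G+H+ arrays.

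Factors of later gut organs were mixed, with 6 of 29 members higher, 4 lower and a median of -0.01. Hnf4a, a nuclear receptor of liver and visceral endoderm, had 5.06, 5.09 and 4.06 in ESCs and 11.21, 11.06 and 11.90 in d6 G+H+ cells and was at least 80.2-fold higher (adjusted p = 3.56e-15). Irx3 rose by 5.80 and Tbx1, a pharyngeal T-box factor, by 4.63, while the LIM homeobox gene Isl1 was at least 12.6-fold higher. Cdx1, a posterior gut gene, fell by 4.10, and its relative Cdx2 was at least 5.92-fold lower. The decrease of Cdx2 did not pass the threshold with slide as a fixed block (adjusted p = 0.0142), with a background offset of 50, or without ESC replicate 2 or d6 G+H+ replicate 1. Sox2, listed here for the foregut and also a pluripotency factor, fell by 6.73. The organ specifiers Nkx2-1 (lung and thyroid), Onecut1 and Prox1 (liver) and Hnf4g were not well above background on any array of either group. Pdx1, of pancreas and duodenum, was above background on the 3 d6 G+H+ arrays and had a difference of 0.72, under the threshold.

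Secreted and membrane antagonists of Nodal, Wnt and BMP included 11 of 33 members that rose and 4 that fell, with a median of 0.15. Sfrp5, which binds Wnt ligands, had 6.12, 5.95 and 5.96 in ESCs and 15.68, 14.86 and 14.84 in d6 G+H+ cells, a difference of 9.12 with a standard error of 0.41 (adjusted p = 5.12e-18). Dkk1, which blocks the Wnt co-receptor, had 5.22, 6.38 and 4.75 against 12.63, 12.23 and 13.74. The groups stood apart for both genes, and the difference of Dkk1 was 7.42. Sfrp1 rose by 4.92, and Frzb, another Wnt-binding protein, by 4.66. Shisa2, which retains Frizzled and FGF receptors inside the cell, rose by 4.39, and the Nodal inhibitors Lefty1 and Lefty2 rose by 3.27 and 3.14 from levels that were already well above background in ESCs. Within the family of secreted Frizzled-related genes the directions were opposite, because Sfrp2 fell by 2.65 and Sfrp4 fell by 3.54. Dkk3 and Smoc1 also fell, Dkk3 not past the threshold with a background offset of 50. The BMP antagonists Chrd and Nog, known from the node, had differences of 0.15 and -0.27 and were not called.

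Ligands were divided, with 12 of 46 higher and 11 lower. The FGF family held both extremes. Fgf5, Fgf8 and Fgf10 rose, Fgf5 by 6.65, Fgf8 by 6.19 and Fgf10 at least 54.8-fold. Fgf4, the ESC ligand, fell from 13.58, 12.56 and 13.27 to 4.71, 5.09 and 4.81 and was at least 291-fold lower (adjusted p = 1.57e-16), and Fgf18 fell by 3.42. The BMP ligands moved in opposite directions as well. Bmp2 had 6.34, 6.95 and 5.23 in ESCs and 12.04, 12.38 and 12.27 in d6 G+H+ cells, a rise of 6.05, whereas Bmp4 had 12.43, 12.73 and 13.48 against 6.95, 7.56 and 7.50, a difference of -5.55. Gdf3 fell by 5.97. Nodal itself differed by 0.43 and was not called. With a background offset of 50 in place of 10 the count of lower ligands was 7 in place of 11.

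Of 52 receptors and co-receptors 15 rose and 9 fell, with a median of 0.63. The EGF-CFC co-receptors of Nodal exchanged places. Cfc1, Cryptic, had 9.13, 8.21 and 7.97 in ESCs and 14.36, 14.58 and 15.73 in d6 G+H+ cells and rose by 6.45 (adjusted p = 2.42e-15), and Tdgf1, Cripto, fell by 4.68. The chemokine receptor Cxcr4, a surface marker of definitive endoderm, had 4.75, 4.53 and 5.07 against 10.11, 10.12 and 10.40 and was at least 39.7-fold higher. The VEGF receptor gene Flt1 rose by 5.79 and the TGF-beta co-receptor gene Tgfbr3 by 5.24. Among the hedgehog receptors Ptch1 fell by 2.12, and the Wnt receptor gene Fzd9 fell by 2.80.

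**Figure D3:**
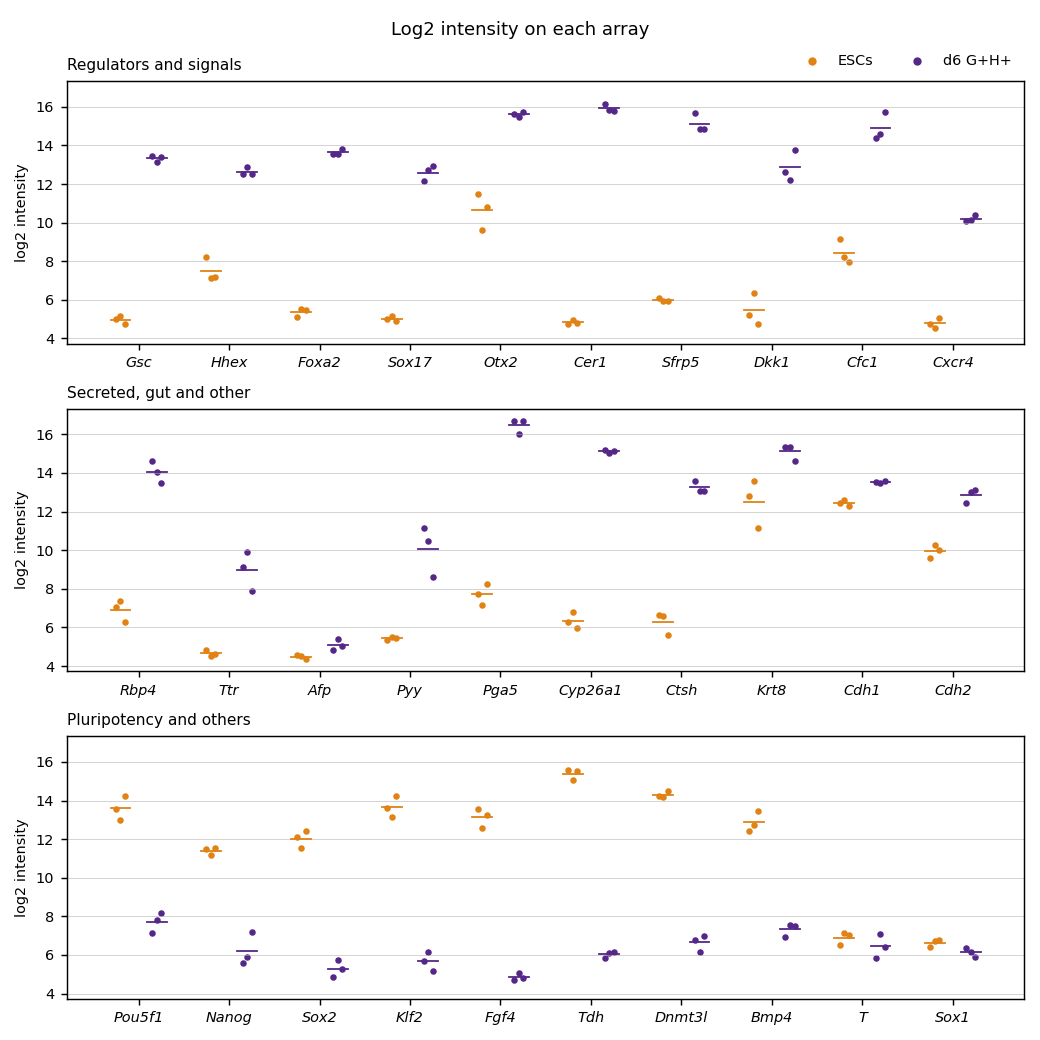
Log2 intensity on each of the 3 ESC arrays (orange) and the 3 d6 G+H+ arrays (purple) for 30 genes, with bars at the group means. The groups stand apart for the regulators and signals in the top row, Afp stays near 5 in both groups, and T overlaps between them.

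Epithelial genes rose in part. Among 47 tight junction, desmosome and keratin genes 11 rose (23.4%) and 2 fell (4.26%). The second share was near the 5.58% of all genes. Krt8 and Krt18, the keratin pair of simple epithelia, rose by 2.61 and 2.08 and Krt7 by 3.16. The claudin gene Cldn6 rose by 2.32, and Tmprss2 and Spint1, a membrane protease and a protease inhibitor of epithelia, by 3.03 and 2.55. Cdh1 (E-cadherin) had 12.42, 12.60 and 12.31 in ESCs and 13.52, 13.47 and 13.60 in d6 G+H+ cells. These groups did not overlap, yet the difference of 1.09, with a standard error of 0.43, missed both thresholds (adjusted p = 0.0632). Cdh2 (N-cadherin) had 9.58, 10.28 and 10.01 against 12.42, 12.99 and 13.10 and rose by 2.88 (adjusted p = 7.97e-13), so that both classical cadherins were well above background in the sorted cells. The protocadherins Pcdh7 and Pcdh8, of which Pcdh8 acts in gastrulation movements, also rose, Pcdh8 by 4.68. Of 16 genes listed for epithelial-mesenchymal transition 1 was called, higher (6.25%), near the 5.98% of all genes. It was the actin gene Acta2, which did not pass without ESC replicate 3 or without d6 G+H+ replicate 1 or 2. Snai1 had a difference of -0.21.

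Basement membrane genes numbered 10 higher and 5 lower of 32. Lamb1, Lama5, Lamc1, Col4a1 and Col4a2 rose, with Lamb1 rising by 2.23 and Col4a1 by 2.48. Lamb3, Smoc2 and Frem1 rose more, Lamb3 by 3.11 and Smoc2 by 4.14. Col18a1 fell by 3.89. Lama1 fell by 2.69, but not past the threshold without ESC replicate 3 or d6 G+H+ replicate 3. Without ESC replicate 3 the count of higher members was 6 in place of 10. Of 34 interstitial matrix genes 7 rose (20.6%) and 2 fell (5.88%), the latter share near the 5.58% of all genes. Col2a1, the fibrillar collagen of cartilage and notochord, rose by 4.66. The count of higher members was 4 in place of 7 without ESC replicate 3 or without d6 G+H+ replicate 1 or 2.

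Apolipoproteins and secreted carriers, the export proteins of yolk sac and liver, held 13 of 32 members that rose and 2 that fell, with a median of 0.58. The share that fell (6.25%) was near the 5.58% of all genes. Rbp4, which carries retinol, had 7.08, 7.35 and 6.27 in ESCs and 14.63, 14.03 and 13.49 in d6 G+H+ cells, a difference of 7.15 with a standard error of 0.33 (adjusted p = 7.44e-18). Ttr, which carries thyroxine and the RBP4 complex, had 4.85, 4.54 and 4.63 against 9.11, 9.93 and 7.88 and was at least 16.5-fold higher. Apoa1 was at least 11-fold higher, and Ambp rose by 5.16. Afp, alpha-fetoprotein, had 4.55, 4.50 and 4.35 against 4.83, 5.42 and 5.04 and was not well above background on any of the 6 arrays. Ahsg, fetuin A, fell, and Trf, transferrin, fell by 2.98.

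Gut peptide hormones and their receptors held 6 of 25 members that rose (24%) and 1 that fell (4%), beside 5.98% and 5.58% of all genes. The lower one was Nts, neurotensin, whose call was lost under 5 of the alternatives. Pyy, peptide YY, had 5.37, 5.51 and 5.47 in ESCs and 11.14, 10.49 and 8.59 in d6 G+H+ cells and rose by 4.63 (adjusted p = 1.47e-09). Gip, Sst and Grp, which encode an incretin, somatostatin and gastrin-releasing peptide, were not well above background in ESCs and were at least 12.6-fold, 10-fold and 8.33-fold higher. The spread among the d6 G+H+ arrays was wide for these genes, for example 9.98, 7.25 and 7.77 for Sst, but the groups did not overlap. Gcg, Vip and Cckar were not well above background in either group. Chga, chromogranin A of endocrine granules, rose by 5.52, from 9.42, 8.53 and 9.35 to 14.71, 14.87 and 14.30.

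Of 28 endocytic receptors and lysosomal genes 6 rose and 3 fell. The cathepsin genes Ctsh and Ctsc rose by 6.99 and 4.83, and Lgmn by 2.46, all with a protease as product. The endocytic receptor gene Lrp2, megalin, fell by 2.85, and Cubn and Amn, its partners in visceral endoderm, had differences of 1.20 and 1.28 that stayed under the threshold. In retinoic acid metabolism and response, 4 of 21 genes rose and 5 fell. Cyp26a1, which degrades retinoic acid, had 6.26, 6.81 and 5.96 in ESCs and 15.17, 15.06 and 15.15 in d6 G+H+ cells and rose by 8.79 (adjusted p = 2.73e-21). The receptor genes went opposite ways, since Rarb rose by 5.13 and Rarg fell by 4.71. With a background offset of 50 the count of lower members was 3 in place of 5.

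The proximal promoters of the antagonist genes Cer1 and Sfrp5, the gut factor gene Hnf4a, the carrier gene Rbp4 and the pluripotency gene Nanog are shown as examples from the groups described, with sequences from RefSeq (GRCm38.p6) that end at the base before the first listed start, 5′ to 3′ on the strand of the gene. Capitals mark matches, on either strand, to the forkhead word TGTTTAC, the word AGATAA of GATA factors, the word TAATCC of the GSC and OTX homeodomains, the SOX word CATTGT or the word TTTGCAT, which is part of the octamer bound by OCT4. The first 4 genes rose and Nanog fell. The windows of 250 bases are chr4:82885152-82885401 on the minus strand for Cer1, chr19:42202253-42202502 on the minus strand for Sfrp5, chr2:163506607-163506856 on the plus strand for Hnf4a, chr19:38125322-38125571 on the minus strand for Rbp4 and chr6:122707239-122707488 on the plus strand for Nanog.
Cer1: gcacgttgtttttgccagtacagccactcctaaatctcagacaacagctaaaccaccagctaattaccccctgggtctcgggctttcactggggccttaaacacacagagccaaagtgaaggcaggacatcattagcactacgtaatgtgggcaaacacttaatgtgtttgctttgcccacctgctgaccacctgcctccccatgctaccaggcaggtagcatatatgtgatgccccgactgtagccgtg
Sfrp5: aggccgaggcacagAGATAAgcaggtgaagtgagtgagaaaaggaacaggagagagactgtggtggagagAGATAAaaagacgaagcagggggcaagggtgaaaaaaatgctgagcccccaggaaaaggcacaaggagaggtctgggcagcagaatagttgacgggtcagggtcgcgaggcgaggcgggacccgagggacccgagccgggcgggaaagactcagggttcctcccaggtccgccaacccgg
Hnf4a: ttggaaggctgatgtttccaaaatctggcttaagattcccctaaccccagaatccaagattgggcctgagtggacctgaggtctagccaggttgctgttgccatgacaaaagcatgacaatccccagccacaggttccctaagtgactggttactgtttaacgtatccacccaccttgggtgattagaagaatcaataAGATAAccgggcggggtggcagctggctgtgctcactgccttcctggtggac
Rbp4: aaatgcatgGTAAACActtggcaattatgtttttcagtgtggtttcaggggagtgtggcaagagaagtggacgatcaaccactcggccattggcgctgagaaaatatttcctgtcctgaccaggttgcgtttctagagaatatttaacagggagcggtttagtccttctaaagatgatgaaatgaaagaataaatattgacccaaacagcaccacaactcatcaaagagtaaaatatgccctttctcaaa
Nanog: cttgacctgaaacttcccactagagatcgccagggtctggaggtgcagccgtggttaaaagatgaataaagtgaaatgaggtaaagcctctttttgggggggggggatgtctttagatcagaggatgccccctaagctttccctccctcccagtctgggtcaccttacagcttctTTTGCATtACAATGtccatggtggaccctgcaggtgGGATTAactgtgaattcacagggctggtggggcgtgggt
The window of Sfrp5 held the GATA word at 236 and at 180 bases before the start and that of Hnf4a at 52 bases. The forkhead word lay 241 bases before the start of Rbp4, and the window of Cer1 held none of the 5 words. In Nanog the octamer word and the SOX word were separated by 1 base, at 75 and 67 bases before the start, and the homeodomain word followed at 39 bases. Such matches are descriptions and not sites. Over 1265 windows of 964 genes called higher, 6.8% held the GATA word and 2.29% the forkhead word, beside 8.66% and 2.63% of 20253 windows of 16613 tested genes. The homeodomain word was in 5.22% of windows of higher genes and 5.83% of all, and the SOX word in 6.8% and 8.82%. Over 1155 windows of 890 genes called lower, 4.68% held the octamer word beside 3.86% of all. The median number of CG dinucleotides was 13 in windows of higher genes, 11 in those of lower genes and 10 in all, with 5 in Cer1 and 3 in Nanog.

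Pou5f1, Nanog and Sox2, the core of the pluripotency network, all fell. Pou5f1 had 13.58, 12.98 and 14.22 in ESCs and 7.12, 7.79 and 8.16 in d6 G+H+ cells and fell by 5.91 (adjusted p = 3.26e-09). Nanog had 11.51, 11.16 and 11.54 against 5.58, 5.89 and 7.21 and fell by 5.18. Both were still well above background on the 3 d6 G+H+ arrays. Sox2 had 12.10, 11.53 and 12.44 against 4.86, 5.76 and 5.25, with 2 of the 3 d6 G+H+ arrays above background. Klf2, a naive factor, fell by 7.99, and of the nuclear receptor genes Esrrb fell by 6.22 and Nr5a2 fell by 6.28. Zfp42 (Rex1) fell by 5.58 to 8.78, 7.91 and 9.13. In d6 G+H+ cells, 5 of the 20 naive factors were not well above background. The germline and pluripotency genes Dppa2 and Dppa4 were lower, Dppa2 at least 102-fold, and Dppa4 fell by 6.53.

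Genes of the primed epiblast were divided, with 10 of 20 higher, 4 lower and a median of 1.54. Fgf5, Otx2, Lefty1, Cdh2 and Sox3 rose, whereas Pou3f1 (OCT6) fell by 4.38 and Dnmt3l by 7.66. Of 15 genes in the list of DNA methylation enzymes, which also holds Dnmt3l and Gadd45a, not enzymes themselves, 3 fell and 1 rose. The 3 were Dnmt3l, Tet1 and Gadd45a, of which Gadd45a fell by 3.23. The share that rose (6.67%) was near the 5.98% of all genes. Dnmt3l, the cofactor of de novo methylation, had 14.22, 14.20 and 14.51 in ESCs and 6.80, 6.14 and 7.0 in d6 G+H+ cells, and Tet1, a dioxygenase of methylcytosine, fell by 3.29. Dnmt3b, the catalytic partner, rose by 1.62, less than 1.5 with slide as a fixed block (1.41), under 75th percentile scaling (1.43) and without ESC replicate 3 (1.49). In the list of threonine, glycine and serine metabolism Tdh, Shmt1 and Mthfd1 fell and 15 of 18 members were not called. Of 33 genes in the list of polycomb subunits, which also holds the demethylase genes Kdm6a and Kdm6b, 6 rose and 3 fell. Phc1 fell by 2.93 and Eed fell by 2.11, while Ezh2 and Suz12 had differences of -0.16 and -0.71. Kdm6b, not itself a subunit, rose by 2.58 and is counted among the 6. With an offset of 50 the count of higher members of this list was 3 in place of 6.

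Of 43 cell cycle genes 0 rose and 6 fell, and the median was -0.88 beside 0.00 over all genes. Mybl2, a regulator of mitotic genes that is high in ESCs, fell by 4.04, the cyclin gene Ccnd1 fell by 3.54 and Ccne1 fell by 1.75. Pcna and Mki67 had differences of -0.88 and -0.20 and were not called. Cdkn2a, an inhibitor of cyclin-dependent kinases, rose by 2.27, but not past the threshold without ESC replicate 3 or with only the compared groups in the fit. Germline genes held 0 of 29 higher and 10 lower, with Tdrd12, Mael and Stra8 among the lower ones. Of 39 Hox genes, which pattern the trunk, 29 stayed in the background of all d6 G+H+ arrays and 0 rose. Imprinted genes held 6 of 26 higher and 3 lower, and Grb10, Dio3 and Peg3 rose by 4.38, 3.27 and 2.88.

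Axon guidance genes, which also act in cell migration and epithelial sorting, had 21 of 53 members higher and 5 lower. Robo3 and Slit1 rose, Robo3 at least 63.2-fold and Slit1 by 5.64, as did the plexin gene Plxna2 by 5.14 and Sema3f by 3.89. Sema4a fell by 2.34. The count of lower members was 2 in place of 5 with an offset of 50, without ESC replicate 2 or without d6 G+H+ replicate 3. Among the metallothioneins Mt2 fell from 16.44, 16.57 and 16.46 to 13.53, 14.21 and 11.17, a difference of -3.52 with a standard error of 0.74 (adjusted p = 0.000278). The zinc importer gene Slc39a8 rose by 4.12. The lists of glycolysis, Bcl2 family, cyclin-dependent kinase inhibitors and immediate early genes held 2 of 35, 3 of 16, 2 of 7 and 4 of 21 higher members and 2, 3, 0 and 2 lower ones, where glycolysis, at 5.71% in each direction, lay near the 5.98% and 5.58% of all genes. The 3 higher Bcl2 family members, Hrk, Bmf and Bcl2, lost their calls under 5, 5 and 4 of the alternatives.

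Markers of other cell types were read in the same way. Extraembryonic endoderm markers, which overlap with those of definitive endoderm, had 15 of 23 members higher (65.2%) and 1 lower (4.35%). The second share was near the 5.58% of all genes. Their median was 1.64, and their summed level on the log2 scale was 13.28 to 13.67 in ESCs and 16.44 to 17.01 in d6 G+H+ cells. Most of that sum was Pga5, without which it was 13.24 to 13.66 in ESCs and 14.42 to 14.61 in d6 G+H+ cells. Pga5, Hnf4a, Ttr and the parathyroid hormone receptor gene Pth1r led the increases, Pth1r rising by 4.11, whereas Afp was dark and Lrp2 lower. Mesoderm, cardiac and haemato-vascular markers had 8 of 35 higher and 5 lower, with sums of 15.03 to 15.59 in ESCs and 14.17 to 15.14 in d6 G+H+ cells. Evx1, Gata1, Myl7 and Runx1 rose by 4.20, 4.03, 3.50 and 3.19, and Tcf15 fell by 6.82. T (Brachyury), of streak and notochord, had 6.50, 7.16 and 7.03 in ESCs and 5.85, 7.11 and 6.40 in d6 G+H+ cells, with overlapping groups and a difference of -0.45 (adjusted p = 0.693). The endothelial gene Cdh5 was not above background in either group. Counts of lower mesoderm markers were 3 in place of 5 with an offset of 50 or with only the compared groups in the fit.

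Neural markers had 4 of 21 members higher and 3 lower, with sums of 12.15 to 12.66 in ESCs and 13.03 to 13.84 in d6 G+H+ cells. Rax, the homeobox gene of eye field and hypothalamus, had 5.77, 4.81 and 5.41 against 12.05, 12.27 and 11.14 and rose by 6.49, and Nkx6-1 and Sox3 rose by 4.01 and 2.72. Six3 rose by 1.66 but not past the threshold under 5 of the alternatives. Tubb3 fell by 2.98, Sox1 differed by -0.49 (adjusted p = 0.0619), and Dcx, Fabp7, Olig2 and Pou3f2 were not above background in either group. Trophoblast markers had 4 of 13 higher and 2 lower, with sums of 14.15 to 14.35 and 14.40 to 15.65. Gata3 and Ascl2 rose by 4.24 and 2.42. The 2 lower members were Cdx2, at least 5.92-fold lower and listed above for the gut, and Esx1. The calls of Cdx2 and Esx1 were lost under 4 and 1 of the alternatives. Node and notochord markers had 2 of 11 higher and 1 lower, with sums of 10.28 to 10.58 and 13.85 to 14.08. Most of the second sum was Foxa2, counted above among the endoderm factors, and without it the sums were 10.22 to 10.54 and 11.42 to 11.46. Foxa2 and Bicc1 rose, Ccno fell, while Shh and Noto were not above background in either group. What part other cells in the gate have in any difference was not tested.

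The study annotated its own marker lists by hand and used them on these same samples, and whether they are independent of these samples is not known. They gave 22 of 34 definitive endoderm genes higher and 1 lower. Of 13 visceral endoderm genes 10 were higher and 0 lower, and of 11 mesendoderm genes 7 were higher and 0 lower. Of 23 pluripotency genes 15 were lower and 1 higher. Of 21 mesoderm genes 6 were higher and 1 lower, and the 7 neurectoderm and 11 trophoblast genes had 1 and 4 higher and 3 and 1 lower. Over all genes 5.98% were higher and 5.58% lower. The 1 higher pluripotency gene (4.35%) and the 1 lower mesoderm gene (4.76%) lie near these shares.

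The population most like d6 G+H+ cells was the d6 G+H- cells, sorted on the same day with GSC-GFP and no HHEX-RedStar. Against these, d6 G+H+ cells had 0 of 20972 genes called higher (0%) and 0 called lower (0%) by limma. At an unadjusted p under 0.05 there were 2514 of 55681 probes, and 22 genes differed by at least 1.5 at any p. Hhex averaged 12.63 with and 12.17 without the reporter signal, a difference of 0.47 with a standard error of 0.40. Cer1 averaged 15.92 and 15.34. This does not show that the populations are alike, since the interval of a difference is set by 3 arrays a group.

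Against d5 Ghigh cells, the population with high GSC-GFP of the day before, 596 genes were higher (2.84%) and 314 lower (1.5%), 910 in all (4.34%). With only the compared groups in the fit the counts were 293 and 164, and under 75th percentile scaling 539 genes were lower. This comparison shares the d6 G+H+ arrays with the one against ESCs, so the values are given side by side and not correlated. The largest increases were those of Rax, Myl3, Nefh, Chga and Pga5. Rax rose from an average of 5.69 to 11.82, a difference of 6.13. Nefh, a neurofilament gene, differed by 5.65 from d5 Ghigh but by 0.93 from ESCs, where it was well above background, and was not called against ESCs. The largest decreases were those of Bmp4, Mesp1, Tnfrsf19, Vstm2b and Pmp22. Mesp1, the cardiac mesoderm regulator, went from an average of 10.32 to 4.83, a difference of -5.49. It was well above background on all 3 d5 Ghigh arrays, on 1 of the 3 d6 G+H+ arrays and on no ESC array, so that the size of this decrease is uncertain. Bmp4 differed by -5.76.

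By group, 21 of 47 junction and keratin genes were higher than in d5 Ghigh cells and 0 lower, beside 2.84% and 1.5% of all genes, with the epithelial adhesion gene Epcam at 1.77. In the list of 21 cadherins and catenins 2 were higher, Cdh1 by 2.44 and Pcdh8, and 4 were lower, Cdh11, Pcdh18, Pcdh19 and Cdh4, with differences of -4.12, -3.38, -2.15 and -2.14. Extraembryonic endoderm markers had 10 of 23 higher and 1 lower, carriers 8 of 32 and 0, and gut hormones 7 of 25 and 1. Mesoderm markers had 2 of 35 higher and 15 lower, with T at -2.85. Foxa2, Sox17 and Cxcr4 differed from d5 Ghigh cells by 0.19, 0.21 and 0.13 and were not called, whereas Hesx1 was higher by 5.06. Cer1 differed by 3.03 and was not called (limma adjusted p = 0.014). Gsc differed by 0.37, but GSC-GFP was part of the gate of both populations, so that this value is no finding. Hhex is left out here because its reporter set the d6 gate. The metallothioneins Mt1 and Mt2 were higher by 3.92 and 3.63, although both were lower than in ESCs, Mt1 with a call that was lost under 6 of the alternatives. Of the immediate early and heat shock genes 7 of 21 were higher than in d5 Ghigh cells and 0 lower. Their part in the result was not tested.

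**Figure D4:**
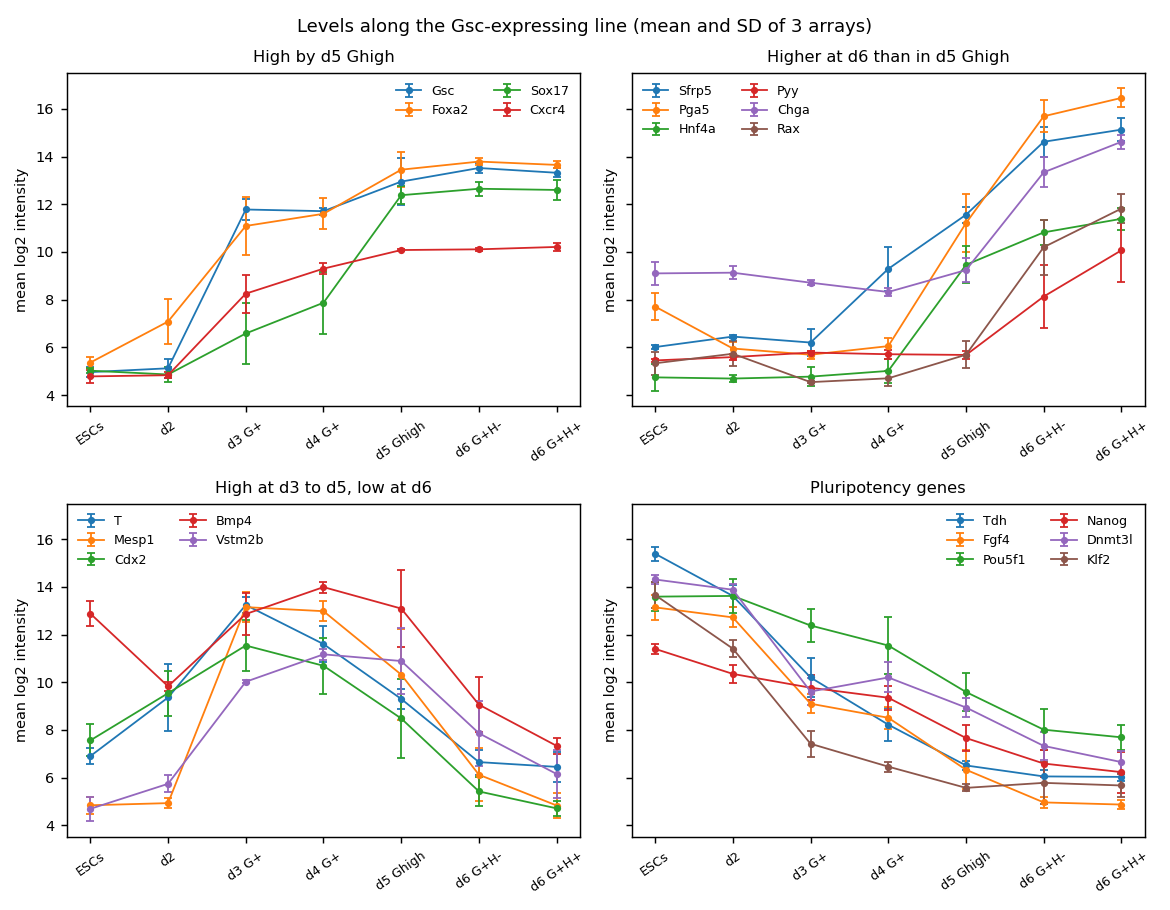
Mean log2 intensity with SD over 3 arrays (y axis) in ESCs, d2 cells and the populations sorted for GSC-GFP on d3 to d6 (x axis); ESCs and d2 cells were not sorted. Foxa2, Sox17 and Cxcr4 are at their d6 level by d5, Rax, Pyy and Pga5 rise after it, and T, Mesp1 and Cdx2 are high at d3 and low at d6. Gsc is also at its d6 level by d5, but its reporter set the gate on both days.

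The course of each group before d6 was read from medians of the members' differences from the same ESC arrays, which all populations share. For anterior endoderm factors the median was 1.80 on d3 and 2.58 on d4 (G+ cells), 3.39 on d5 (Ghigh cells), and on d6 4.75 without and 5.01 with HHEX-RedStar. Without Gsc and Hhex these medians were 1.80, 2.58, 3.27, 4.22 and 3.92. Naive pluripotency factors were already at -3.72 in d3 G+ cells, beside -4.20 in d6 G+H+. General pluripotency regulators passed from -1.29 through -1.96 and -2.65 to -3.76 and -3.88. Cell cycle genes lay between -0.13 and 0.09 up to d5 Ghigh and at -0.79 and -0.88 in the 2 d6 populations. Mesoderm markers had medians of 1.41, 2.25 and 1.45 on d3, d4 and d5 and of 0.19 and -0.02 on d6. Junction and keratin genes had -0.47, -0.96 and -0.28 and then 0.32 and 0.41.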

How the data were processed

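Single-colour Agilent arrays measured Cy3-labelled total RNA of 42 samples, in 14 groups of 3 replicates. Per the file headers, scanner files came from Agilent Feature Extraction 11.0.1.1 for the untreated series and 12.0.1.1 for the EPZ6438 series, and the fluorescence intensity and the marks for background and outliers of these deposited files were used here only for checks. The authors corrected the background by normexp with an offset of 10, quantile normalised the arrays with limma and deposited log2 values of 59305 spots that are not controls. These log2 values were averaged per probe (55681 probes) and fitted with limma 3.58.1 in R 4.3.3, with 1 mean per group over all 42 arrays, so that all groups share an estimate of the spread. Groups came from the deposited labels. Of 23171 RefSeq accessions in the scanner files, 21865 matched RefSeq gene symbols, which left 20972 genes. A gene was called when at least 1 probe reached the study's thresholds, adjusted p ≤ 0.01 and log2 difference ≥ 1.5 in size. Each gene is given by its brightest probe over the 42 arrays, and 39 genes called higher and 52 called lower were called through another probe.

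Values recomputed from the median intensity correlated with the deposited log2 values at 0.999979 or more on each array. A probe counted as well above background on an array where at least 50% of its spots carried that mark. No probe was saturated in the comparison (0 values). Precision is limited by 3 arrays per group. Tested on simulated data for d6 G+H+ against ESCs with 20972 genes, the fit found 97 of 100 genes with an added log2 difference of 2, 100 of 100 with one of 3, and 1 unchanged gene. The simulated arrays shared 1 mean per probe, with independent normal noise, no slide or scan-day effect and increases only. These counts are therefore no error rates of the real comparison.

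Named genes were the 10 with the largest change in each direction with 1 direction in all 9 pairings of arrays, up to 4 called members per list and direction, fixed markers, and the 5 with the largest change in each direction against d5 Ghigh cells. Other genes were named after their values were seen, most of them members that were not called. The groups compared, the gene lists and the tests were chosen with earlier results of these data known. Alternatives changed the values, the background offset, the scaling, the probe filter, the arrays in the fit, the thresholds, and slide, scan day (chosen after seeing the data) or replicate number as a block, and left out each array. Of 937 list symbols 8 were not matched to a probe.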

Additional observations from a re-analysis of the deposited data

How the results depend on the processing

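Against ESCs, the counts of 1254 higher and 1170 lower genes were within 1.5 times of the main count under all alternatives but the lower threshold of 1 on the log2 difference, which gave 2095 and 2054. Leaving out each array gave 1148 to 1347 higher and 1125 to 1207 lower genes. An offset of 50 gave 1006 and 826, of which 1004 and 825 were called in the main fit too, and 75th percentile scaling gave 1578 and 1601 with a median of all genes of -0.09. Against d6 G+H- cells, leaving out 1 array gave 0 to 2 higher and 0 to 3 lower genes, with 1 higher without d6 G+H+ replicate 1, 2 or 3, 2 higher without d6 G+H- replicate 1 and 3 lower without d6 G+H- replicate 3. Against d5 Ghigh cells the counts were 293 and 164 with only the compared groups in the fit, 1053 and 675 at a log2 difference of at least 1, and 539 lower under 75th percentile scaling. Leaving out each array there gave 453 to 757 and 255 to 429. The cause was not tested.

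The replicate numbers were not taken as pairs in the main fit. Deviations from the group mean correlated at -0.05, 0.08 and 0.43 between ESC and d6 G+H+ arrays of the same number. For arrays of different numbers they correlated at -0.35 to 0.37, the highest for ESC replicate 2 and d6 G+H+ replicate 1, which shared a slide. With 3 arrays per group such values cannot decide whether the numbers mark a shared batch, and replicate 3 of both groups was scanned on its own day. With the replicate number as a block, 1261 higher and 1180 lower genes were called against ESCs, 0 and 0 against d6 G+H- and 606 and 329 against d5 Ghigh. Named genes were followed under 16 alternatives, which leave out the changed thresholds, the fit with 1 probe per gene and the count of RefSeq accessions. Of 187 named genes called in the main fit, 149 were called under all of these, and none changed direction. Probes not well above background give bounds only, and 4185 genes were dark in both groups.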
